A study of Mus musculus with 12 samples.

Results

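The response of homozygous GR-C3 knockin mouse embryonic fibroblasts (MEFs) to dexamethasone (Dex) was measured on 6 of the 12 one-colour arrays of the study. The 3 arrays of GR-C3 cells that received 100 nM Dex for 6 hours were set against the 3 arrays of GR-C3 cells that received vehicle for the same time. MEFs are connective tissue cells grown from embryos, here of a C57Bl/6 background. In the knockin, the start codons of the glucocorticoid receptor gene Nr3c1 other than that of the GR-C3 isoform were changed, so the cells of both groups can make GR-C3 alone. Wild-type (WT) cells of the same background with and without Dex, 3 arrays each, made up the rest of the study and served here only to show where the GR-C3 response differed. The samples are labelled as biological replicates without a statement on separate embryos or cultures, so the p-values cover only the spread from sample to sample, which may be technical. The labels name neither sex nor embryo of origin.

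The glucocorticoid receptor (GR) rests in the cytoplasm with chaperones, moves to the nucleus when it binds a glucocorticoid such as Dex, and there raises some genes through DNA elements of its own and lowers others, many of them inflammatory. Translation of its mRNA can begin at several start codons, which gives a family of receptors with shorter or longer N-termini. GR-C3 is one of the shorter forms, and in fibroblasts glucocorticoids are known for lowering cytokine and hyaluronan production and for favouring fat cell differentiation.

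Levels are given in log2 units above or below the array's own 75th percentile of signal, so a level of 0 lies at that percentile. By the scanner's own call, 71.3 to 79.0% of probes rose clearly above background on these 6 arrays. Across genes, which are not independent replicates, vehicle arrays correlated with each other at 0.995 to 0.997, Dex arrays at 0.992 to 0.997, and arrays of different treatment at 0.989 to 0.993. GR-C3 vehicle 1 and 2 were on slide 3, and GR-C3 vehicle 3 shared slide 4 with the 3 Dex arrays. None of 16 fibroblast markers was called, and the log2 of their summed signals was 10.25 to 10.53 on the vehicle arrays and 10.36 to 10.46 on the Dex arrays. The defining epithelial genes Epcam and Cdh1, endothelial Pecam1 and Cdh5 and the macrophage gene Itgam were not well above background. Of the other cell type markers that were measured, 1 of 11 macrophage genes fell (Ptprc, 9.09%) and 1 of 8 endothelial genes rose (Kdr, 12.5%). In addition, 2 of 6 epithelial genes fell (Krt18 and Krt19, 33.3%) and 1 of 14 neural genes rose (Tubb3, 7.14%), against 3.7% of all genes called. Ptprc, Kdr, Krt18 and Krt19 were each called in 1 of the 6 fits that left out an array, and Tubb3 in 2. None of the skeletal muscle, chondrocyte, erythroid or pluripotency genes was called. The log2 summed signals of the epithelial list lay between 2.44 and 2.53 under vehicle and between 2.09 and 2.14 under Dex. Those of the endothelial list lay between 2.24 and 2.32 and between 2.39 and 2.43, and those of the macrophage list between 2.80 and 2.91 and between 2.56 and 2.69. Their part in the results was not tested. In such bulk RNA, fewer cells of a type and less RNA per cell cannot be told apart.

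Dex changed 751 of 20310 genes tested in GR-C3 cells (3.7%), 439 higher (2.16%) and 312 lower (1.54%), at an adjusted p under 0.05 by limma with Benjamini-Hochberg adjustment over all genes, which is what "called" means here. At least 2-fold changes were found in 162 genes (0.798%), of which 113 rose and 49 fell. The median size of a called log2 change was 0.64, against a median change of -0.01 over all genes. By the fitted change rises reached further than falls: 17 called genes were at least 4-fold higher and 5 at least 4-fold lower. These counts include genes with signals near background, such as Itgb6 (-2.13), for which only a bound holds. Of the called genes, 7 were not well above background on any vehicle array and 12 on any Dex array. Vehicle and Dex arrays did not overlap in 5988 genes (29.5%), which included every called gene. The excess of rises over falls depended on the scaling, since quantile normalization gave 446 higher and 461 lower and scaling to the array median 277 and 362. The count fell to 207 without vehicle 1, 227 without vehicle 2, 156 without Dex 2 and 185 without Dex 3. It was 673 without Dex 1 and rose to 1053 (790 higher) without vehicle 3. As vehicle 3 was the only vehicle array on slide 4, treatment and slide cannot be told apart without it. For the same reason, a fit with slide as a block takes each change from the Dex arrays against vehicle 3 alone. Vehicle 1 and 2, on slide 3, then add only to the estimate of spread. With slide as a block the count was 189 (125 higher, 64 lower). Within slide 4, where 3 Dex arrays faced vehicle 3 alone, Lcn2 was the 1 gene called (2606 at an unadjusted p under 0.05). A set of 135 genes, 110 higher and 25 lower, was called with all 6 arrays and again without each of the 6 in turn.

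**Figure D1:**
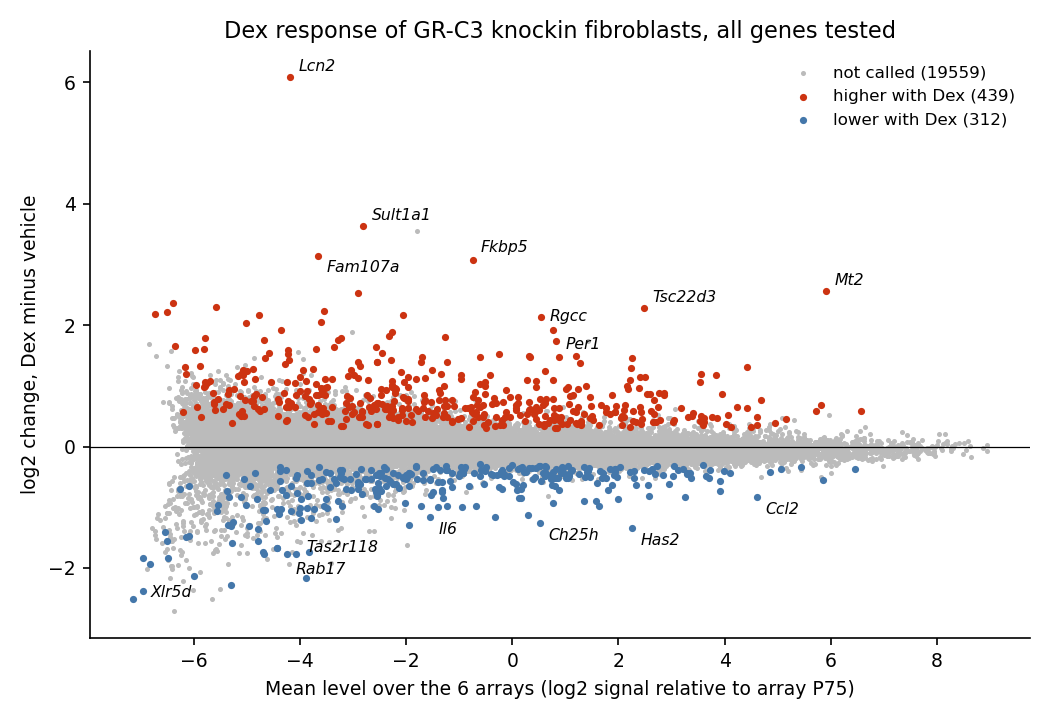
Each point is a gene, with its mean level over the 6 GR-C3 arrays on the horizontal axis and its log2 change with Dex on the vertical axis. The 439 called rises (red) include Sult1a1 at 3.64, and the 312 called falls (blue) include Has2 at -1.34. The point for Lcn2 at the top is plotted from a vehicle signal that was not well above background, so its height has only a bound.

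Lcn2, which encodes the iron-siderophore carrier lipocalin 2, rose the most (probe at chr2:32392828-32393072, build mm7, as are all probe positions below). Its levels were -7.49, -7.16 and -7.01 under vehicle, where it was not well above background on any array, and -1.11, -1.12 and -1.20 under Dex. Lcn2 was therefore at least 42.7-fold higher with Dex (limma adjusted p = 0.000165). Sult1a1, a sulfotransferase that conjugates phenols (chr7:122769649-122769708), stood at -4.79, -4.60 and -4.49 under vehicle and at -1.02, -1.03 and -0.93 under Dex. It rose 12.4-fold (log2 change 3.64 ± 0.09 (SE)), and its 6 arrays split into 2 tight groups far apart. Fam107a, an actin-associated gene long known as a glucocorticoid target, rose from -5.43, -5.23 and -5.02 to -2.22, -2.02 and -2.01, a log2 change of 3.14 ± 0.12.

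The feedback regulator Fkbp5 and the effector Tsc22d3 also rose. Fkbp5, which encodes a chaperone partner that reduces the receptor's affinity for hormone (chr17:26586393-26586452), had levels of -2.24, -2.38 and -2.24 under vehicle and of 0.46, 0.94 and 0.96 under Dex, an 8.41-fold rise (log2 3.07 ± 0.15, adjusted p = 0.00113). Tsc22d3, which encodes the anti-inflammatory protein GILZ, rose from 1.44, 1.43 and 1.16 to 3.57, 3.56 and 3.73, or 4.84-fold. Dex 1 held the lowest Fkbp5 level of the treated arrays, yet the groups were separated by several times the spread within them. The other probes showed log2 changes of 1.75 and 2.52 for Fkbp5 and of 2.33 and 2.41 for Tsc22d3.

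The metallothionein Mt2, a zinc-binding protein (chr8:92762515-92762574), rose from a level already far above the 75th percentile. Its levels were 4.56, 4.66 and 4.66 under vehicle and 7.29, 7.14 and 7.13 under Dex, a 5.89-fold rise (log2 2.56 ± 0.07, adjusted p = 0.00032). Its neighbour Mt1 rose by 1.31 ± 0.11. Metallothionein genes are similar in sequence, so cross-hybridisation between their probes cannot be told apart from separate changes: the 2 probes of Mt4, a further family member that was called, showed 0.83 and 3.18. Of 15 metal-handling genes tested, these 3 metallothioneins were the only ones called (20%, against 3.7% of all genes).

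Other large rises covered secretion, the cell cycle and transcription. Serpina3n, a secreted protease inhibitor of the acute phase, rose by 2.17 ± 0.14. Rgcc, a regulator of the cell cycle, went from -0.54, -0.58 and -0.45 to 1.69, 1.58 and 1.57 (2.14 ± 0.07), and Myocd, the coactivator of smooth muscle genes, rose by 2.05 ± 0.12. Klf15, a transcription factor of amino acid and lipid metabolism, rose by 1.80 ± 0.14 at 1 probe, while its other probe showed 0.34. The 25 largest rises among genes well above background on all 6 arrays ran from 1.48 to 3.64, with standard errors of 0.07 to 0.20. Of them, 24 were called again without each array in turn, the exception being Slc10a6, a steroid sulfate transporter. Ablim3, an actin-binding gene in this group, rose by 1.89 at the probe used and showed -0.27 at its other probe.

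**Figure D2:**
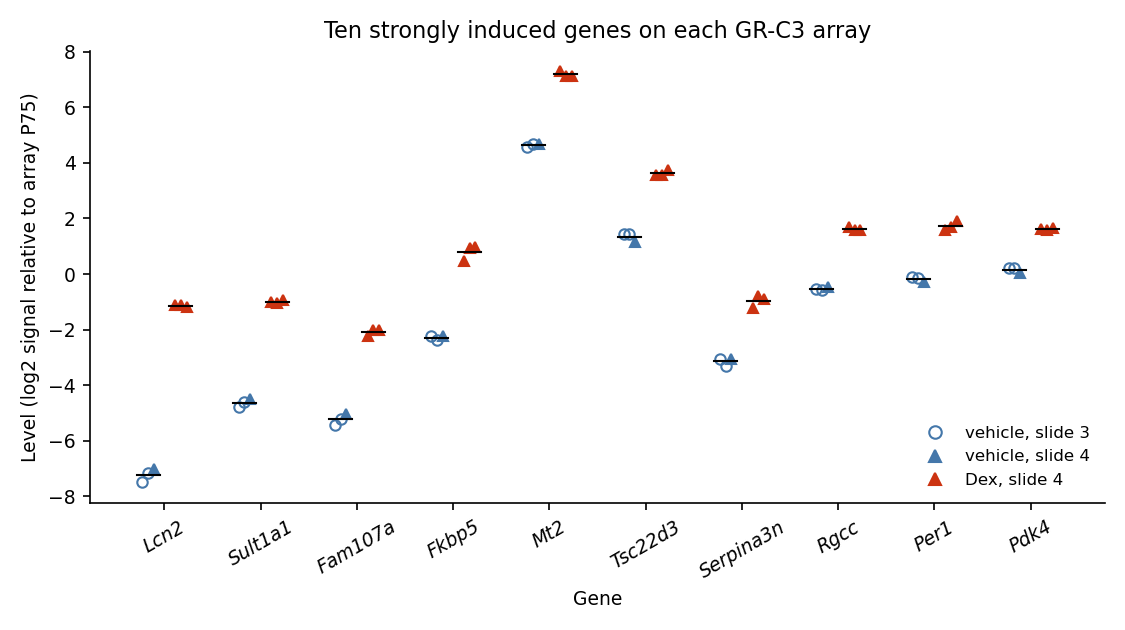
The level of 10 strongly induced genes on each of the 6 GR-C3 arrays, with a line at each group mean. Vehicle arrays of slide 3 (open circles) and of slide 4 (filled blue triangles) lie together and below the Dex arrays (red) in all 10 genes.

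The upstream sequences of induced genes were read because the GR binds a palindrome of AGAACA-like arms around a short spacer. In RefSeq promoter windows of build GRCm38.p6, each from 250 bases before to 50 after a gene's start, the core ACANNNTGT, which reads the same on both strands, occurred in 5.91% of the 13055 tested genes that had a window. It occurred in 12.6% of 293 called higher (37 genes), in 20.3% of the 69 that rose at least 2-fold (14 genes) and in 8.59% of 198 called lower (17 genes). Genes called higher had slightly more windows each than all tested genes (1.35 against 1.26). The single arm TGTTCT, on either strand, was found in 15.7% of higher, 21.7% of at least 2-fold higher, 17.7% of lower and 16.3% of all tested genes. The AP-1 motif TGANTCA, also its own reverse complement, was found in 8.19% of higher, 13.0% of at least 2-fold higher, 13.6% of lower and 7.41% of all tested genes. The full palindrome, ACANNNTGT with AGA before it and TCT after it, which thus contains both motifs, was held by 1 tested gene, Sgk1. These shares are descriptions, with no test, and a match is not evidence of binding. Sequences with a match are printed for Sgk1, chosen after its window was seen, and for 4 further genes. The 4 were those with the core in their most upstream window among 27 genes named for a large rise or an upward bound. Of the 27, 21 had a window. The 250 bases before each start are printed 5′ to 3′ on the gene's strand, with the motif in capitals.
Sgk1: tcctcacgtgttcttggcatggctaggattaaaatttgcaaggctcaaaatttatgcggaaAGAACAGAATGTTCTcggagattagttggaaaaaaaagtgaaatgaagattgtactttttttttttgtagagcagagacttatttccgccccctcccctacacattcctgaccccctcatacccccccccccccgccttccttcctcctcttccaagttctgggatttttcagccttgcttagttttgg
Lcn2: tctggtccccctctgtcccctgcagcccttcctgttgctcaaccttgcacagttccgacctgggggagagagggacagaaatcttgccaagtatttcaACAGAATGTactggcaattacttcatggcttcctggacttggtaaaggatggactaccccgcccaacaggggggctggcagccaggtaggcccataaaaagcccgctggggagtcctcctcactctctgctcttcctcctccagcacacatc
Serpina3n: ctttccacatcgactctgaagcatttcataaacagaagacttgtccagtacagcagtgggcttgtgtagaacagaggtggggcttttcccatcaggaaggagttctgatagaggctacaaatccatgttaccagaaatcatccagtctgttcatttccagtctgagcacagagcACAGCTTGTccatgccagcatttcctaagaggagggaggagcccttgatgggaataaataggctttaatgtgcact
Slc10a6: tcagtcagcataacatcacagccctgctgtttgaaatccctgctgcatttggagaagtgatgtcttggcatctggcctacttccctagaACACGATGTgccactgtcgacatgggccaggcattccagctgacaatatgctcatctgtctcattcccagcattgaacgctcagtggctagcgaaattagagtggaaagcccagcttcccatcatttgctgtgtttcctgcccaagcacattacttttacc
Glul: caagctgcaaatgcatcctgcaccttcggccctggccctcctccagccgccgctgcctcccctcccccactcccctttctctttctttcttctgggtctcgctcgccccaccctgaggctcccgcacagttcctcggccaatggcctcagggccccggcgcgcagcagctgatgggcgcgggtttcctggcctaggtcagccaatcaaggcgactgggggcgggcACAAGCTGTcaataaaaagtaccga

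The Sgk1 sequence lies at chr10:21993640-21993889 on the + strand, and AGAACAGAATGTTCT stands 189 to 175 bases before the start. Sgk1, a serum and glucocorticoid regulated kinase that controls ion transport, rose from 4.28, 4.22 and 4.43 to 5.20, 5.03 and 5.01, by 0.77 ± 0.09 (adjusted p = 0.0126). The Lcn2 sequence is at chr2:32387740-32387989 (- strand) with ACAGAATGT 152 to 144 bases before the start, and that of Serpina3n at chr12:104406458-104406707 (+ strand) with ACAGCTTGT 76 to 68 bases before. The Slc10a6 sequence is at chr5:103629404-103629653 (- strand) with ACACGATGT, and that of Glul, glutamine synthetase, at chr1:153899679-153899928 (+ strand) with ACAAGCTGT. Slc10a6 rose by 1.61 ± 0.20, and Glul rose from 0.61, 0.27 and 0.50 to 1.76, 2.08 and 2.03, by 1.50 ± 0.13, though its other probe showed 0.31.

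Most known glucocorticoid-induced genes rose. Of 40 tested, 29 were called higher, 1 lower and 10 were not called (75% called, against 3.7% of all genes). The median log2 change of the list was 0.82, against -0.01 for all genes. The list was drawn up from general knowledge with earlier results of these data known, so its direction is not independent evidence. Besides the genes above, Per1 and Per2 of the clock, Pdk4, the kinase that inhibits pyruvate dehydrogenase, Errfi1, an inhibitor of the EGF receptor, and Klf9, a transcription factor, were among the rises. Pdk4 stood at 0.22, 0.22 and 0.02 under vehicle and at 1.60, 1.60 and 1.66 under Dex (1.47 ± 0.08), and Tgm2, a transglutaminase, rose by 1.17 ± 0.06. Angptl4, an inhibitor of lipoprotein lipase that glucocorticoids are known to raise in liver and fat, went the other way: its levels of 0.48, 0.69 and 0.60 fell to -0.28 and -0.24 (-0.85 ± 0.09, adjusted p = 0.0176). Dex 2 had no value for Angptl4 because its spot carried an outlier call, so that fit rests on 5 arrays. Of the 6 fits that left out an array, Angptl4 was called only in those without Dex 2 and without vehicle 3. Leaving out Dex 2 took away no Angptl4 value, so that call does not show that Angptl4 withstands the loss of an array. The members not called included well-known targets, chosen for mention after their values were seen: Dusp1, a MAP kinase phosphatase, changed by 0.17 ± 0.07 (adjusted p = 0.217), Nfkbia, the NF-κB inhibitor, by 0.62 ± 0.12 (adjusted p = 0.0623), Foxo1 by -0.26 ± 0.10 (adjusted p = 0.196) and Anxa1, annexin A1, by 0.08 ± 0.07 (adjusted p = 0.526). With slide as a block 18 members were called higher, without vehicle 2 it was 19 and without Dex 2 it was 17. In 1 fit of all 12 arrays 0 members were called, and 3 with the planned normexp background correction. The median stayed between 0.68 and 0.84 over all settings tried.

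Among 27 genes of the receptor and its chaperones, Fkbp5 rose and Nr3c1 itself fell, and the other 25 were not called. The called share was 7.41%, against 3.7% of all genes. The probe of Nr3c1 gave 1.86, 1.83 and 1.86 under vehicle and 1.53, 1.44 and 1.39 under Dex, a change of -0.40 ± 0.06 (adjusted p = 0.0308), and its groups did not overlap. The 3 other probes of the gene showed changes from -0.22 to 0.22, so its direction rests on 1 probe. The edit alters start codons, which a transcript level does not read, so these values do not check the genotype labels.

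Several secreted inflammatory genes fell. Of 26 cytokine and chemokine genes tested, 5 were called lower and 1 higher (23.1%, against 3.7% of all genes). The median log2 change of these genes was -0.18. Il6, interleukin 6 (chr5:29052734-29052793), stood at -1.01, -0.99 and -0.88 under vehicle and at -2.04, -2.15 and -2.19 under Dex, a 2.25-fold fall (-1.17 ± 0.07, adjusted p = 0.00171). Il11, a cytokine of the same family, fell from 0.22, 0.29 and 0.29 to -0.78, -0.89 and -1.03 (-1.17 ± 0.08). The monocyte chemokine Ccl2 fell from 4.90, 5.07 and 5.08 to 4.19, 4.19 and 4.18 (-0.83 ± 0.07). The Dex arrays lay close together and below all vehicle arrays in each of these genes. Cx3cl1, a membrane-bound chemokine, fell by 0.64, and Cxcl10, a lymphocyte chemokine, fell by 0.89. Il34, a ligand of the CSF1 receptor, was the exception and rose by 0.78 ± 0.09. Il6, Il11 and Ccl2 were called again without each array in turn. They were also called with slide as a block, where vehicle 3 alone sets the vehicle level. Of the list, 3 genes were called lower without vehicle 1, vehicle 2, Dex 2 or Dex 3 and with slide as a block. A further 10 genes of the list were not tested, as they were not well above background on all 3 arrays of either group or had no probe.

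Of 28 inflammatory enzymes and receptors tested, 7 were called lower and 3 higher (35.7%, against 3.7% of all genes, median -0.14). The lower count was 3 without vehicle 1 and with slide as a block, and 2 without vehicle 2, Dex 2 or Dex 3. The higher count was 1 without vehicle 1 and 0 without vehicle 2, Dex 2 or Dex 3 and with slide as a block. Has2, the main hyaluronan synthase of fibroblasts (chr15:56729040-56729099), stood at 2.80, 3.00 and 2.98 under vehicle and at 1.58, 1.70 and 1.48 under Dex, a 2.53-fold fall (-1.34 ± 0.09, adjusted p = 0.00213) shared by its other probe (-1.10). Has1 fell beside it by 1.22 ± 0.06, from -4.04, -4.03 and -4.06 to -5.24, -5.22 and -5.32. Lyve1, a hyaluronan receptor, rose by 1.55 ± 0.11, and these 3 were the genes called among 15 of hyaluronan synthesis, turnover and binding (20%). Ch25h, which makes the oxysterol 25-hydroxycholesterol, fell from 1.11, 1.19 and 1.19 to -0.04, -0.10 and -0.18 (-1.27 ± 0.06). Tnfrsf11b, the RANKL decoy receptor osteoprotegerin, fell by 0.91 ± 0.11 and the pattern receptor gene Tlr2 by 0.56 ± 0.07. The 3 rises were the chemokine scavenger Ackr4 (0.91 ± 0.10), the shared IL-6 family receptor subunit Il6st (0.77 ± 0.11) and F3, tissue factor. Of 22 NF-κB genes, the inhibitory Zfp36 (0.57) and Irak3 (0.70) rose, while Relb (-0.51) and the feedback inhibitor Tnfaip3 (-0.46) fell. That was 18.2% of the NF-κB genes. Ahr, the receptor for dioxin-like ligands, belonged to none of these lists and fell by 1.13 ± 0.13.

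Of 26 acute phase and complement genes tested, 6 rose, 0 fell and 20 were not called, with a median of 0.26. The called share was 23.1%, against 3.7% of all genes. The 6 were Lcn2, Serpina3n, the haemoglobin scavenger Hp (1.46 ± 0.13), the lipopolysaccharide carrier Lbp (1.02 ± 0.12), the copper carrier Cp (0.81 ± 0.10) and the plasma lipocalin Orm2 (0.77 ± 0.13). No complement gene of the list was called. C4bp, which encodes a complement C4b-binding protein, was outside the list and rose by 0.97. The count was 3 without vehicle 2, Dex 2 or Dex 3 and 2 with slide as a block.

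**Figure D3:**
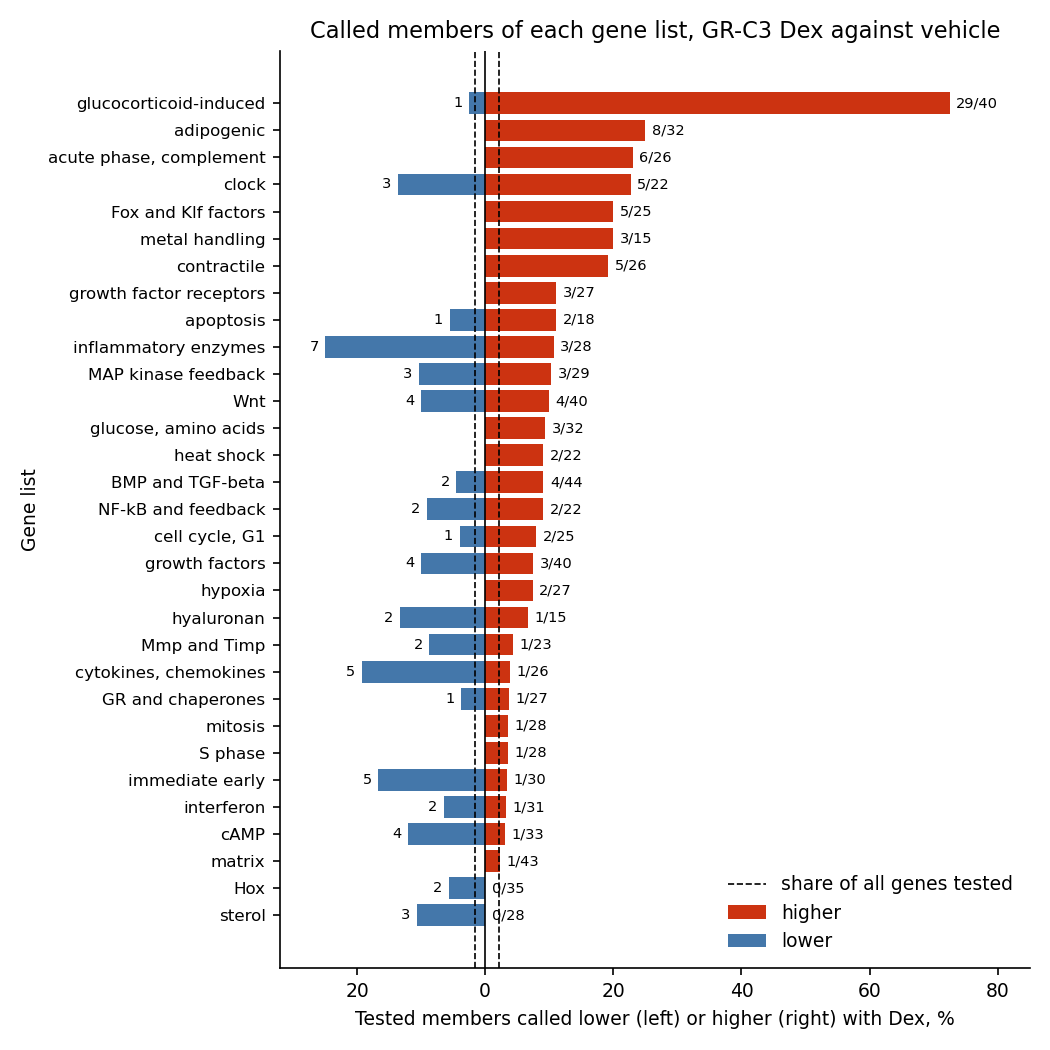
Bars show the percentage of tested members of each of 31 gene lists that were called higher (red, right, with called over tested) or lower (blue, left, with the count) with Dex in GR-C3 cells. Dashed lines mark the shares of all genes tested, 2.16% higher and 1.54% lower, and the glucocorticoid-induced list (29 of 40) extends furthest.

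Clock genes moved in both directions, 5 of 22 up and 3 down (36.4% called, against 3.7% of all genes). The repressor genes Per1 and Per2 rose: Per1 from -0.10, -0.16 and -0.31 to 1.60, 1.71 and 1.90 (1.92 ± 0.10), and Per2 by 1.42 ± 0.08, with -0.10 at its other probe. Cry2, a partner of the Per proteins, and Nfil3, a repressor of D-box genes, rose by 0.57 and 0.53. The nuclear receptor repressors fell, Nr1d1 from -1.20, -1.32 and -1.20 to -2.19, -2.16 and -2.31 (-0.98 ± 0.07) and Nr1d2 by 0.54 ± 0.08. Per1, Per2 and Nr1d1 were called again without each array in turn.

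The called members of the adipogenic list and of the glucose and amino acid list all rose, while Angptl4, outside both lists, fell. Of 32 adipogenic genes tested, 8 rose and 0 fell (25% called, against 3.7% of all genes, median 0.13). Fabp4, the fatty acid carrier of fat cells, rose from 1.56, 1.67 and 1.55 to 3.02, 2.81 and 2.84 (1.30 ± 0.08), and its 2 other probes showed 1.14 and 1.21. Cebpd, an early transcription factor of the programme, rose by 0.65 ± 0.06, Ebf1 by 0.77 ± 0.07, the lipid droplet protein gene Plin4 by 0.64 and Cidea, which enlarges droplets, by 0.65. The adipogenic count was 5 without vehicle 2 or Dex 1, 4 without vehicle 1 or Dex 3, 3 without Dex 2 and 3 with slide as a block, where the median was 0.02. Of 32 glucose and amino acid genes, 3 rose (9.38%, against 3.7% of all genes), namely Pdk4, Glul and the insulin-regulated glucose transporter Slc2a4 (0.51). The median of this list was 0.01, and 13 of its members changed by less than 0. Pdk4 and Glul, and Klf15, Cebpd and Cebpb of the adipogenic list, also belong to the glucocorticoid-induced list, so these counts overlap. Among 25 Fox and Klf genes 5 Klf factors rose (20%): Klf15, Klf9 (1.10 ± 0.10), Klf12, Klf13 and Klf6. Klf13 showed -0.24 at its other probe.

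Signalling feedback genes moved both ways. Called shares were 20.7% of MAP kinase and G protein feedback genes, 20% of immediate early genes and 15.2% of cAMP genes. Of all genes, 3.7% were called. Of 29 MAP kinase and G protein feedback genes tested, 3 rose and 3 fell. Errfi1 rose from 2.02, 2.09 and 2.18 to 2.95, 2.97 and 2.99 (0.87 ± 0.07), and Rgs2, which dampens G protein signalling, rose by 0.64 ± 0.07. The phosphatase genes Dusp4 (-0.63 ± 0.06) and Dusp10 (-0.59 ± 0.07) fell, as did Rgs16 (-0.39). Of 30 immediate early genes, 5 fell and Klf6 rose (0.33). Egr3 fell by 0.86 ± 0.07 at the probe used and showed -0.09 at the other, and Nr4a1 (-0.62), Egr2 (-0.46), Jun (-0.37) and Ier3 (-0.34) fell with it. Of 33 cAMP genes, Pde4b (-0.74 ± 0.12), which degrades cAMP, Pde8b, Pde1a and the repressor Crem fell, and adenylyl cyclase Adcy5 rose by 0.62. Among the genes of these lists, only Errfi1 and Egr3 were called again without each array in turn.

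Growth factor, Wnt and BMP genes moved in both directions, and 0 members of these lists were called again without each array in turn. Called shares were 17.5% for growth factor genes, 11.1% for their receptors, 20% for Wnt genes and 13.6% for BMP and TGF-β genes. Of all genes, 3.7% were called. Of 40 growth factor genes, the vascular factors Vegfd (0.97 ± 0.10), Vegfc (0.68 ± 0.10) and Adm (0.58 ± 0.05) rose. The EGF receptor ligands Hbegf (-0.57 ± 0.08) and Areg (-1.05 ± 0.13), together with Angptl4, were among those that fell, while Tgfa, a ligand of the same receptor outside the list, rose by 0.65. Of 27 growth factor receptor genes, Mertk (0.67), Ror1 (1.27 ± 0.21) and Kdr (0.59) rose and none fell. Of 40 Wnt genes 4 rose and 4 fell, among them the ligand gene Wnt10a (0.67) and the receptor gene Fzd1 (0.67 ± 0.06) upward and the Wnt amplifier Rspo2 (-0.89 ± 0.10) downward. Of 44 BMP and TGF-β genes, Tgfb2 (0.94 ± 0.15), Gdf6 (0.77 ± 0.10), the activin subunit Inhbb (0.56) and Ltbp1 (0.44) rose, and Gdf15 (-0.51) was among those that fell.

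Structural and other gene lists differed in the share called. Of 43 matrix genes tested, the fibrillar collagen gene Col11a1 was the 1 called, a share below the 3.7% of all genes. It rose from 2.93, 2.98 and 3.12 to 4.05, 4.08 and 4.10 (1.07 ± 0.07), and its 2 other probes showed 0.95 and 1.09. Of 26 contractile genes, Myocd, Ablim1 (1.19 ± 0.07), the integrins Itga5 (0.51) and Itga8 (0.43) and Lmod1 (0.32) rose, a share of 19.2%. Adamts1 (0.56) rose and Mmp16 (-0.43) and Timp1 (-0.37) fell among 23 metalloproteinase and inhibitor genes (13.0%). Of 28 S phase genes Rrm2 (0.44) rose and of 28 mitotic genes Anln (0.36) rose, in each case 3.57%, about the share of all genes. Of 35 Hox genes Hoxb2 (-0.63) and Hoxb6 (-0.36) fell (5.71%). Of 31 interferon-stimulated genes Irgm1 (-0.71) and Irf1 (-0.52) fell and Isg20 (0.34) rose (9.68%). Hoxb6 and Irf1 each had another probe of opposite sign. Of 28 sterol genes Ch25h, Insig2 (-0.41) and the exporter Abcg1 (-0.52) fell (10.7%). Of 22 heat shock genes Hspb7 (1.40 ± 0.07) and Hspa1a (0.32) rose (9.09%). Of all these genes, only Col11a1, Myocd, Ablim1, Ch25h and Hspb7 were called again without each array in turn. Itga8, Lmod1, Timp1, Hoxb6, Insig2 and Hspa1a lost their call whichever array was left out.

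The largest falls were split by their change in WT cells, computed without WT vehicle 1, an array described with the interaction. Among the 25 largest falls of genes well above background on all 6 arrays, 17 had a change below 0 in WT cells too, with standard errors in GR-C3 cells of 0.06 to 0.15. Besides Has2, Has1, Ch25h, Il6, Il11 and Ahr they included Lrrc4, a synaptic adhesion gene (-1.68 ± 0.11), and the maturation marker Cd83 (-1.29 ± 0.13). The other 8 had standard errors of 0.17 to 0.28 and WT changes of 0.35 to 0.59 without that array. Of them, 4 had a called interaction on those 11 arrays and 0 on all 12. The split used the same arrays, so this count is not independent evidence of a difference. None of the 8 was called again without each array in turn, against 8 of the 17. The genes split off were Tas2r118, Rab17, Olfr1215, Olfr738, Ppp1r3a, Iqcf4, Slc23a1 and Olfr536. Among them Tas2r118 encodes a bitter taste receptor, Rab17 an epithelial trafficking GTPase and the Olfr genes odorant receptors. Tas2r118 lay at -3.46, -3.01 and -3.10 in GR-C3 vehicle and at -4.42, -5.00 and -5.45 in GR-C3 Dex (-1.77 ± 0.27, adjusted p = 0.0305). In WT cells it lay at -2.90, -3.52 and -3.67 under vehicle and at -3.62, -2.83 and -3.22 under Dex, so the 3 GR-C3 Dex arrays were the low ones of all 12. Rab17 showed the same order, at -3.80, -3.32 and -2.97 in GR-C3 vehicle, -4.80, -5.09 and -5.48 in GR-C3 Dex and -4.09 to -1.68 on the WT arrays.

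**Figure D4:**
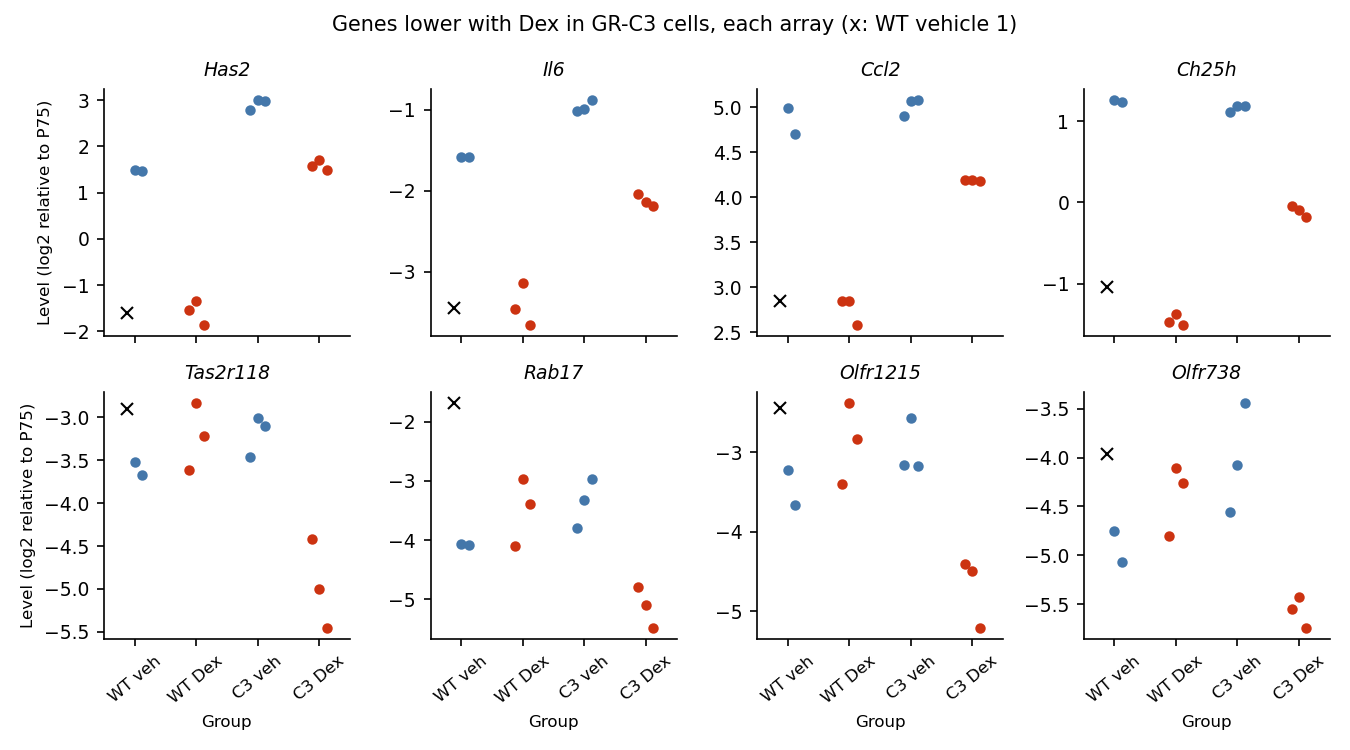
The level of 8 genes on all 12 arrays by group, with WT vehicle 1 marked by a cross. Has2, Il6, Ccl2 and Ch25h (top) were lower with Dex in both genotypes apart from that array, while Tas2r118, Rab17, Olfr1215 and Olfr738 (bottom) were low on the 3 GR-C3 Dex arrays alone. The bottom genes were taken from the falls split off by their WT change, so their pattern follows in part from that choice.

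Signals near background spread more. Of 4814 genes with a vehicle level below -4, 112 rose (2.33%) and 39 fell (0.81%), with a median change of 0.18 and a median standard error of 0.20. Of 4176 genes above 2, 52 rose (1.25%) and 51 fell (1.22%), with a median change of -0.06 and a median standard error of 0.07. Odorant, pheromone and taste receptor genes, a set chosen after the values were seen, had a median change of 0.29 over 627 genes, of which 6 rose (0.957%) and 8 fell (1.28%). The falls of Tas2r118 and the Olfr genes thus ran against the median of their own class. Genes not well above background on any Dex array have only bounds: Itgb6, an epithelial integrin, was at least 2.81-fold lower and Lrrtm2, a synaptic adhesion gene, at least 1.81-fold lower. The other Itgb6 probe changed by 0.65, in the opposite direction.

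The difference between the GR-C3 and the WT response was tested as the interaction, the GR-C3 change minus the WT change. With all 12 arrays limma called 0 genes (1246 at an unadjusted p under 0.05). The array labelled WT vehicle 1 lay with the WT Dex arrays in many of these genes, for instance at 1.51 for Fkbp5 against -2.64 and -2.74 on the other WT vehicle arrays and 2.15, 1.89 and 2.06 under Dex. It was also alone on slide 1 and alone on its scan day. WT vehicle 2 and 3 and WT Dex 1 were on slide 2, and WT Dex 2 and 3 were on slide 3. Without WT vehicle 1, limma called 255 genes (1.26%), and the values below are from these 11 arrays, a choice that uses the outcome. A fit of these 11 arrays with slide as a block was not run, so the part of slide in the values was not tested. Of the 751 genes called in GR-C3 cells, 116 were among the 255: 71 rises and 21 falls were smaller in GR-C3 than in WT cells, and 9 rises and 15 falls were larger or ran opposite to WT.

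Slc45a3, a putative sugar transporter, showed the largest gap among the named rises. It went from -4.11, -4.14 and -4.23 to -2.44, -2.49 and -2.31 in GR-C3 cells (1.75 ± 0.08) and from -4.09 and -4.12 to 0.96, 1.49 and 1.38 in WT cells (5.38 ± 0.14), a difference of -3.64 ± 0.19 (adjusted p = 5.31e-05). Its vehicle levels were alike in both genotypes and its Dex levels did not overlap. The rise of Rgcc was smaller in GR-C3 cells by 2.23 (adjusted p = 0.000479), that of Errfi1 by 1.76 (adjusted p = 0.000378), that of Fkbp5 by 1.65 (adjusted p = 0.00568) and that of Fam107a by 1.60 (adjusted p = 0.00493). With all 12 arrays these differences were -1.96 for Slc45a3, -0.68 for Rgcc, -0.89 for Errfi1, -0.25 for Fkbp5 and -0.09 for Fam107a, none of them called.

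For other strong targets no difference was called, which does not show that the responses were alike. Sult1a1 differed by -0.46 ± 0.18 (adjusted p = 0.27), Tsc22d3 by -0.48 ± 0.21 (adjusted p = 0.324), Per1 by -0.22 ± 0.16 (adjusted p = 0.566) and Tgm2 by -0.10 ± 0.13 (adjusted p = 0.76). Of the 25 largest rises all had a WT change above 0, and 9 had a called interaction. Among the falls, that of Has2 was smaller in GR-C3 cells by 1.72 ± 0.19 (adjusted p = 0.00351): the GR-C3 Dex arrays, at 1.48 to 1.70, reached about the level of 1.49 and 1.47 on WT vehicle arrays 2 and 3. The falls of Ch25h and Ccl2 were smaller by 1.43 (adjusted p = 0.000516) and 1.26 (adjusted p = 0.00644). Il6 differed by 0.67 ± 0.18 (adjusted p = 0.125) and Il11 by 0.03 ± 0.16 (adjusted p = 0.952). Tas2r118 (-2.14, adjusted p = 0.0329) and Rab17 (-2.36, adjusted p = 0.0356) were among the called falls that ran opposite to WT. Both had been split off above by their WT change on the same arrays, so these values are not independent of that choice.

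**Figure D5:**
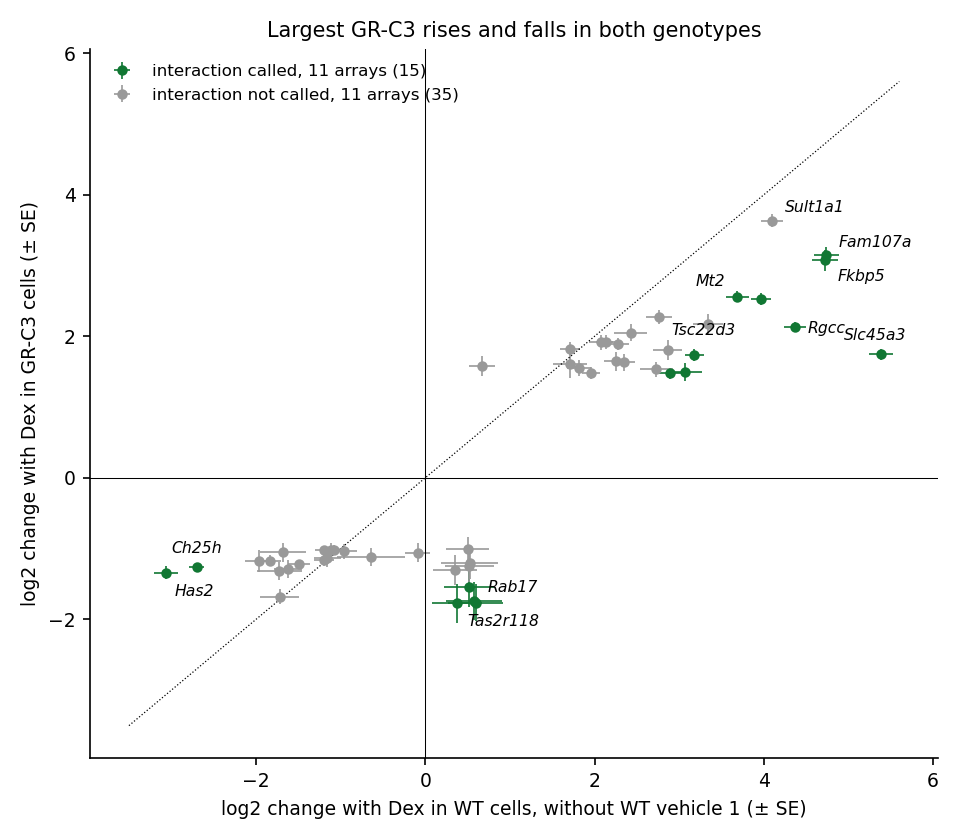
The log2 change with Dex in GR-C3 cells (vertical, 6 arrays) against that in WT cells without WT vehicle 1 (horizontal), each with its SE, for the 25 largest rises and 25 largest falls in GR-C3 cells. Genes with a called interaction are green, the dotted line marks equal change, and Slc45a3 (1.75 against 5.38) lies furthest from it, while 8 falls lie right of 0.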

How the data were processed

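Cy3-labelled RNA was hybridised to one-colour Agilent arrays. The authors' deposited scanner files hold spot intensity values, which Agilent Feature Extraction 9.5.3.1 (9.5 in the submitters' processing notes) had background-subtracted, per the file headers, with no scaling between arrays. Probe positions in the headers are of build mm7. The deposited series matrix repeats these intensity values.

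From each log2 processed signal the 75th percentile of its array's non-control probes was subtracted. That percentile was 1064 to 1399 on the 6 GR-C3 arrays, and precision is limited by how few arrays there are. Spots flagged as outliers and control spots were dropped, and replicate spots were averaged with saturated ones included. Probes had to be well above background in all 3 arrays of vehicle or of Dex: 30028 passed and 11146 did not. The brightest probe on average stood for its gene (6867 of 20310 genes had several passing probes, and 36 lacked a value somewhere). RefSeq supplied names by accession for 23075 probes, by symbol for 6582 and by synonym for 3077. The other 8440 retained their array name.

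Groups and replicate numbers came from the labels. The 6 arrays were fitted with limma 3.58.1 in R 4.3.3 (lmFit and eBayes), and the interaction was fitted on 12 arrays or on 11. Genes with a Benjamini-Hochberg adjusted p under 0.05 are the called ones. Errors after ± are standard errors. With 3 arrays a side, a permutation p could not go below 0.1. The fit was tested on simulated data. For a gene dim on every array of 1 group, "at least N-fold" sets the bright group against a floor: on each dim array, the larger of the gene's own signal and the weakest signal that was well above background.

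The naming rule took Nr3c1, the 25 largest and 25 smallest changes among called genes measured well on all 6 arrays, the 6 largest bounds each way, up to 6 called members a list by smallest p, up to 2 bright members of lists with no call, and 5 sex-linked genes. It passed over clone, RIKEN, LOC and predicted names, and some genes it took are not reported here. F3, Sgk1, C4bp, Tgfa and the uncalled glucocorticoid targets were named after their values were seen. The comparison, lists and rule were chosen with earlier results of these data known. Alternatives covered scaling, background correction, filter, probe choice, slide, spread, left-out arrays and replicate number.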

Additional observations from a re-analysis of the deposited data

How the results depend on the processing

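Of the 751 called genes, 53 changed direction with the planned normexp correction, 3 with the mean of a gene's probes and 1 of the 701 still tested where all 6 arrays had to be well above background. Leaving out an array could not turn a direction, since the groups of called genes do not overlap. With the planned normexp correction 5 genes were called, 5 higher and 0 lower, all at least 2-fold (999 at an unadjusted p under 0.05): Crispld2, Mt2, Per1, Rgcc and Tsc22d3. Among the genes of the text it turned Areg to 0.13, Cd83 to 0.10, Iqcf4 to 0.13, Itgb6 to 0.13, Lrrtm2 to 0.17, Ppp1r3a to 0.0145 and Ptprc to 0.30. Local backgrounds with an outlier call reached 9296 on these arrays, and with them replaced 722 genes were called, 67 of them at least 2-fold. Scaling to the array median gave 277 higher. Without a filter on dim probes 273 were called (207 higher, 66 lower) among 27669 genes. Slide as a block gave 189 (125 and 64), and slide 4 alone 1, which was higher and at least 2-fold, and 0 lower. A fit of all 12 arrays gave 22 (17 and 5), 12 at least 2-fold, and an intensity trend with robust eBayes 1373, 762 of them lower. Deviations from the group mean correlated at 0.10, -0.07 and 0.21 between same-numbered arrays and at -0.24 to 0.13 between the others. Whether the replicate numbers pair the samples was not settled by these values. With the replicate block 126 genes were called (101 and 25), 99 at least 2-fold. Leaving out each array in turn gave 156 to 1053 called, 123 to 790 higher, 33 to 338 lower and 102 to 222 at least 2-fold.

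The interaction, with 0 calls on 12 arrays, gave 3 with quantile normalization (Oas1d, Olfr1312 and Spaca5, named for this count), 38 with slide as a block, 1 with the replicate block (Spaca5) and 0 to 255 without each array in turn. It gave 17 without GR-C3 Dex 1 and 255 without WT vehicle 1. Scan day as a block was not run. All 6 GR-C3 arrays were scanned on 1 day, and WT vehicle 1 was the only array of the 12 scanned on another day. Scan day thus cannot be told apart from that array in the interaction. Most calls of single genes named here were lost under some setting, and signal over background limits the falls of dim genes.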
